A study of Mus musculus with 3 samples.

Results

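The genes of leukocyte adhesion measured here are 8 integrin subunits and their immunoglobulin-type ligands Icam1 and Vcam1, 10 of the 36870 gene names on the arrays. Their probes were found by gene name, those of Icam1, Vcam1, Itgal, Itgam, Itgax, Itgb2, Itga4, Itga5, Itgav and Itgb1. All 10 were found, with 27 of the 56605 probes that are not controls. The cells were RAW264.7, a mouse macrophage cell line, in 3 conditions with 1 array each. In the LPS group the cells received lipopolysaccharide, a cell wall component of Gram-negative bacteria that activates TLR4, for 3 h. In the LOC1 + LPS and LOC3 + LPS groups, Lactiplantibacillus plantarum LOC1 or LOC3, both strains from fresh tea leaves, was given first and LPS followed. The lactobacilli were present for 24 h in the methods and 12 h in the series' design, and LPS was at 50 ng/mL in the methods and 100 ng/mL in the results text. Unchallenged macrophages enter only through the ratios the authors deposited, and their array was not used here. With 1 array per group no SD and no test between conditions can be given, so the values compare these RNA samples and a difference between cultures cannot be told apart from one between treatments.

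Integrins are heterodimers of an alpha and a beta subunit that join the cytoskeleton to ligands outside the cell. In leukocytes the beta subunit Itgb2 pairs with Itgal (LFA-1), Itgam (Mac-1, the complement receptor of macrophages) or Itgax, while Itgb1 pairs with Itga4 (VLA-4, a receptor for VCAM-1 and fibronectin), Itga5 (the fibronectin receptor) or Itgav. ICAM-1 is the ligand of LFA-1 and Mac-1, and VCAM-1 that of VLA-4. Both ligand genes are classical targets of NF-kappaB in cells stimulated through innate receptors. An array measures RNA, and neither pairing nor activation of an integrin at the cell surface is measured by it.

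The probes on which a difference below turns, beside 1 promoter, are shown here as printed on the array, 5′ to 3′, with positions in the mouse build mm9. The Itgax and Itgb1 pairs are given because the probes of each gene did not give the same picture. The Icam1 probe (chr9:20832290-20832349, plus strand) is the dimmer of the gene, and the Vcam1 probe (chr3:115828953-115829012, minus strand) is the dimmer of that gene. The first Itgax probe (chr7:135294052-135294111, plus strand) was measured on all 3 arrays and the second (chr7:135284029-135284088, plus strand) with LOC3 alone. The Itgb1 probes, at chr8:131250081-131255976 and chr8:131250931-131255949 on the plus strand, each span more genome than their 60 bases, so each joins separate stretches of it. They share a run of 23 bases, in capitals, and differ outside it. The first carries the accession of the common Itgb1 transcript, and the second carries that of an alternative cytoplasmic tail, the splice form described in muscle.
Icam1 A_52_P613241: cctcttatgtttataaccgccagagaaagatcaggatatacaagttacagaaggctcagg
Vcam1 A_52_P520495: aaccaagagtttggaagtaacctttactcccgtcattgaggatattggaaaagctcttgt
Itgax A_51_P303424: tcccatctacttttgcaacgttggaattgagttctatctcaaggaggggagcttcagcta
Itgax A_55_P2823539: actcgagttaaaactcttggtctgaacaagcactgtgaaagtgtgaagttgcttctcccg
Itgb1 A_66_P113059: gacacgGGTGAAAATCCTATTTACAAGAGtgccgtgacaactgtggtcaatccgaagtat
Itgb1 A_52_P69236: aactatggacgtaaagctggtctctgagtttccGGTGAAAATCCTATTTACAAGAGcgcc

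RefSeq promoter windows, in the build GRCm38.p6 and read over the 250 bases before the start of the gene, were given for 7 of the 10 genes. Vcam1, Itgal and Itgb2 had none. The window of Icam1 (chr9:21015690-21015939, plus strand) is shown because Icam1 had the highest listed response to LPS among these genes. The capitals mark GGAAATTCC, the letters of the known kappaB element of this promoter, which end 144 bases before the start.
Icam1 promoter: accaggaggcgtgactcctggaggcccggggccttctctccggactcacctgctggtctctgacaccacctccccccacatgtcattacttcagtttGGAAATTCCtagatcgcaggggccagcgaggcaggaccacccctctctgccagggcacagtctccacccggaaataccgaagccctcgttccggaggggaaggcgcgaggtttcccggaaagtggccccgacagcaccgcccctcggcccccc
Read on both strands, these letters were found in 1 of the 7 windows, that of Icam1, and in 0.286% of the 32851 windows given. The letters were chosen as those of the Icam1 element, so this match was set in advance and the shares are not to be compared. The general kappaB consensus, searched the same way, was in 0 of the 7 windows and in 9.55% of all windows. It was searched as a longer pattern that GGAAATTCC cannot match, and the window of Vcam1 was not among those read. The letters GAGGAAGT, bound by the macrophage factor PU.1, were in the window of Itgav (2.44% of all windows), and the AP-1 letters TGANTCA in that of Itgax (6.75%). A match describes the letters and is no measure of binding.

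For each array the 75th percentile of its spots was subtracted from the signals on the log2 scale, and this percentile was an intensity of 555 with LPS, 513 with LOC1 + LPS and 516 with LOC3 + LPS. The brightest probe stands for a gene. The scanner software marks which signals are well above background. The lowest marked signal was 16.3, 14.5 and 19.8 on the arrays in that order, and any unmarked signal below it was set to it, so that "at least N-fold" means a difference bounded in this way. Spot noise gave an SD of 0.06 for a log2 difference of bright probes and 0.27 to 0.31 for the few dim probes printed 10 times. The scanner's own error model gave a standard error of 0.20 for a difference of bright probes. Neither holds the variation between cultures. Of 10 macrophage markers, 10 were well above background with LPS and 9 with either strain, and the highest intensity of any endothelial, fibroblast or epithelial marker was 86.9, that of Vwf with LPS. Of the lymphocyte markers, Cd4 had 895 with LPS and Cd3e 451 with LOC3 + LPS, while Cd8a was not well above background on any array.

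With LPS alone, the authors' deposited log2 ratios to unchallenged macrophages listed 6 probes of 5 of the 10 genes, and each of the 6 was listed as higher. Of all probes, the table listed 7.08% as higher and 6.31% as lower. Icam1 had a log2 ratio of 4.80, which is 27.9-fold, from a probe of intensity 58489 with LPS, and the unchallenged signal that this implies, 2095, lay far above the lowest signal well above background. Its other probe, with an intensity of 5300, was not listed. Itga5 had 2.75, or 6.71-fold, with an implied unchallenged intensity of 432. Icam1 and Itga5, a ligand and the fibronectin receptor subunit, were thus the genes whose listed rise with LPS rests on a bright probe. For both, the implied unchallenged signal also lay above the lowest marked signal of the LPS array. That signal was inferred from the ratio and was not measured here.

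Vcam1 was listed at 4.58, but the implied unchallenged intensity of 3.33 was too dim to be marked as well above background, which leaves at least 4.88-fold. For Itga4 the listed ratios, 1.30 and 1.23, came from probes with intensities of 42.5 and 248, while its brightest probe, with 9631, was not listed. The splice form probe of Itgb1 was listed at 2.14, and its bound was at least 1.69-fold. The brightest probes of Itgal, Itgam, Itgb2, Itgax, Itgav and Itgb1 had no listed LPS ratio, and for all but Itgav nothing can be said of its size, since the deposited table also lacks 16 of the 149 probes that every array measured well and that differed more than 4-fold between arrays. Itgav was listed as lower with the strains, at -1.17 with LOC1 + LPS and -1.28 with LOC3 + LPS against unchallenged cells, and the ratio for LPS alone rebuilt from the intensities was -0.64. Another, dim Itgax probe was listed at 1.06 with LOC1 + LPS although it was not well above background on any array.

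**Figure D1:**
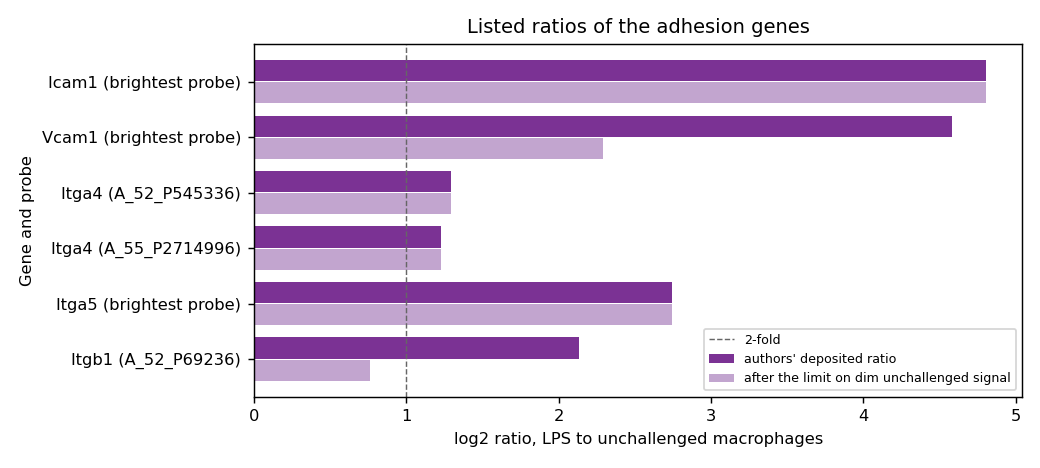
Log2 ratio between macrophages with LPS and without it (horizontal axis) for the 6 listed probes of the adhesion genes (vertical axis). Dark bars are the deposited ratios and light bars the ratios after an implied unchallenged signal that was too dim was set to 16.3, the lowest one marked as well above background with LPS. Only Vcam1 (4.58 to 2.29) and the Itgb1 splice form probe (2.14 to 0.76) have a shorter light bar, and the dashed line marks 2-fold.

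With LOC1 before LPS, 9 of the 10 genes had a lower normalized level than with LPS alone, and 1 of them, Vcam1, was past 2-fold. With LOC3 before LPS, 8 of the 10 were lower, again with Vcam1 alone past 2-fold. None was at least 2-fold higher with either strain. Over all genes compared, 3.81% of 20013 were at least 2-fold lower and 2.49% at least 2-fold higher with LOC1, and 3.26% and 3.05% of 19300 with LOC3, so a count of 1 in 10 is too small to read against this background. The median log2 difference of the 10 genes was -0.47 with LOC1 and -0.31 with LOC3, beside 0.00 and 0.03 over all genes, of which 49.8% and 47.1% had a negative difference. A difference of at least 0.50 in either direction was found for 5 of the 10 genes with LOC1, beside 24.4% of all genes, and for 2 with LOC3, beside 22.5%. The comparisons share the LPS array, so a high signal there lowers both.

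Under median scaling, which moves the median of all genes to 0.22 with LOC1 and 0.23 with LOC3, Itgb2 and Itga5 turned positive with LOC1, as did Icam1 and Itgb2 with LOC3. Of the 10 genes, 7 and 6 stayed lower, beside 29.2% and 28.0% of all genes. The median of the 10 genes was then -0.25 with LOC1 and -0.11 with LOC3. With this scaling 890 genes were at least 2-fold higher and 465 lower with LOC1, in place of 499 and 762, and 890 and 376 with LOC3, in place of 589 and 629. Quantile normalization gave 628 and 610 with LOC1 and 700 and 506 with LOC3, and 9 and 8 of the 10 genes lower, beside 48.3% and 48.0% of all genes.

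**Figure D2:**
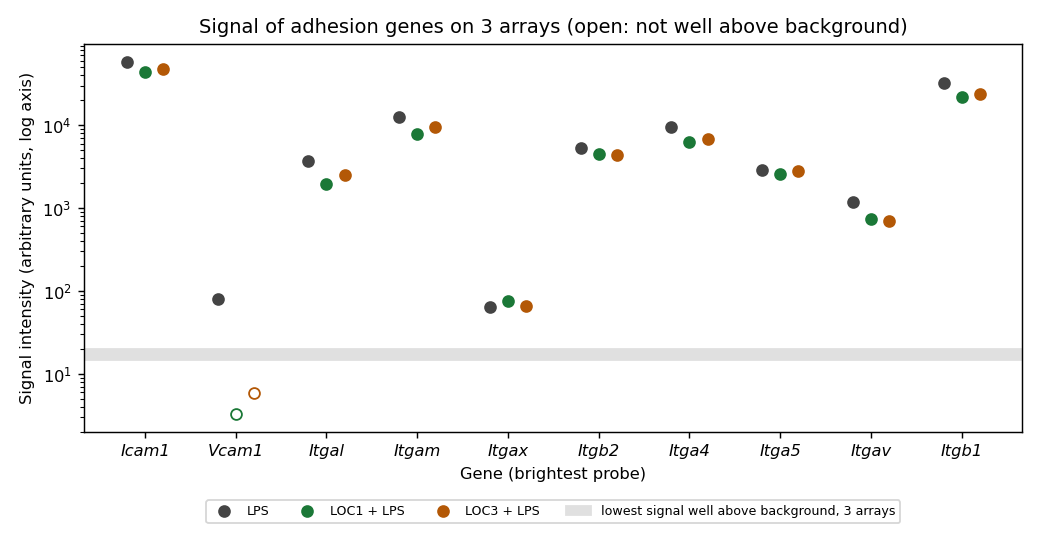
Signal intensity before scaling (log axis) of the brightest probe of each gene on the 3 arrays, with the grey band at the lowest signal well above background (14.5 to 19.8). Open circles were not well above background. Intensities of different probes cannot be set against each other, and within each gene the LPS point is the highest except for Itgax.

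Of the ligands, Icam1 had intensities of 58489 with LPS, 44133 with LOC1 + LPS and 48010 with LOC3 + LPS. The normalized log2 differences from LPS were -0.29 and -0.18, against a scanner error of 0.20, and its dimmer probe, with intensities of 5300, 3208 and 3653, gave -0.61 and -0.43. Both probes were thus highest with LPS and lowest with LOC1 + LPS. In the deposited ratios to unchallenged cells, Icam1 was at 4.80 with LPS, 4.54 with LOC1 + LPS and 4.66 with LOC3 + LPS, so it was still listed as far above the unchallenged level with either strain.

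Vcam1 was the gene past 2-fold. Its intensity was 79.7 with LPS, and the values of 3.25 with LOC1 + LPS and 5.86 with LOC3 + LPS were not well above background, which bounds the fall at 5.08-fold or more with LOC1 and 3.74-fold or more with LOC3. The scanner errors of these log2 differences (-2.34 and -1.90) were 1.46 and 1.09, and neither difference passed 2 of them. The other Vcam1 probe had 18.8 with LPS, just over the limit of that array, and 3.27 and 4.34 with the strains, so it gave at least 1.20-fold lower with LOC1 and no fold with LOC3. Each Vcam1 probe was therefore above background with LPS alone and on no other array. Over all probes, 1664 were well above background on the LPS array only, against 847 with LOC1 + LPS and 500 with LOC3 + LPS, and 51.9%, 50.4% and 47.8% of probes were well above background on the arrays. Under normexp background correction, which draws dim signals together, Vcam1 was at -0.85 and -0.82 and no longer past 2-fold. The endothelial markers, genes of a cell type in which Vcam1 is well known, had a summed intensity of 165, 186 and 169 in the same order, with Tek and Emcn not well above background on any array and Cdh5, Kdr and Vwf above it on all 3. On the log2 scale Cdh5 was at 0.94 with LOC1 and 0.87 with LOC3, Kdr at 0.47 and 0.62 and Vwf at -0.24 and -0.77, and their part in the Vcam1 values was not tested.

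Among the partners of Itgb2, Itgal had the largest difference with LOC1 of the genes measured well on all arrays, when read from the brightest probe. With the probes of a gene averaged, Itgal was at -0.46, behind Itgav at -0.57, Itgb1 at -0.52, Itgam at -0.48 and Itga4 at -0.48. The Itgb1 average includes the bound of its dim alternative tail probe, -0.82. The intensities of the brightest Itgal probe were 3732, 1970 and 2516 with LPS, LOC1 + LPS and LOC3 + LPS, which gave -0.81 and -0.47 on the log2 scale. Below the brightest probe, a pair of Itgal probes that share 56 of 60 bases did not give the same values with LOC1. One had 335, 199 and 205 (-0.64 with LOC1 and -0.61 with LOC3) and the other 420, 406 and 248 (0.06 and -0.66), although they read nearly the same letters. All 3 Itgal probes were lower with LOC3 + LPS than with LPS.

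Itgam, the alpha subunit of Mac-1, had intensities of 12388, 7886 and 9396, and differences of -0.54 with LOC1 and -0.30 with LOC3. Its other probe had 275, 189 and 257, which gave -0.43 and 0.01. The LOC1 array was thus the lowest with both Itgam probes, while the LOC3 array was lower than LPS with the bright one only. The beta subunit itself, Itgb2, had 5299, 4447 and 4395 from its 1 probe, with differences of -0.14 and -0.17, which are within the scanner's error.

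Itgax, a marker of dendritic cells and of some macrophages, was the one gene with a higher level with both strains. Its intensities of 63.6, 75.5 and 65.7 were dim, and the differences of 0.36 and 0.15 had scanner errors of 0.23 and 0.24. A second probe was well above background on the LOC3 array only, with 129 there against 7.69 with LPS and 3.48 with LOC1 + LPS, at least 8.52-fold above LPS and at least 8.86-fold above LOC1 + LPS. The probe measured on all arrays, in the same gene, did not show it: 65.7 with LOC3 + LPS lay between the other values. Of the 500 probes well above background with LOC3 + LPS only, 148 were at least 4-fold above both other arrays, against 40 of 1664 for LPS and 28 of 847 for LOC1 + LPS.

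Of the partners of Itgb1, Itga4 had 9631, 6282 and 6779 from its brightest probe, or -0.50 with LOC1 and -0.40 with LOC3. A probe with 248, 152 and 132 gave -0.59 and -0.81, one with 127, 105 and 119 gave -0.17 and 0.01, and 1 of the 6 Itga4 probes was not measured on any array. The dim probe with 42.5, 20.1 and 15.8, of which the last was not well above background, had -0.97 with LOC1 and was at least 1.99-fold below LPS with LOC3, just short of 2-fold. The remaining probe, with 24.8, 20.7 and 13.4, gave -0.15 with LOC1. The 5 measured probes of Itga4 were lower with LOC1 than with LPS, and all but the one near 127 were lower with LOC3.

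Itga5 did not follow them. It had 2900, 2559 and 2830 from 1 probe and differences of -0.07 and 0.07, so the 3 arrays could not be ordered beyond the scanner's error. In the deposited ratios it was at 2.75, 2.71 and 2.85 over unchallenged cells, a like value in each column. Itgav had 1196, 745 and 692 and differences of -0.57 with LOC1 and -0.69 with LOC3, the largest with LOC3 among the well-measured genes, and its 3 other probes were not well above background on any array.

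The shared beta subunit Itgb1 had 32089, 21893 and 23961 from its brightest probe, with differences of -0.44 and -0.32. The probe with the common tail had 6495, 4823 and 5323, with -0.32 and -0.18. The probe with the alternative tail had 27.6 with LPS, and 6.98 and 9.18 with the strains, not well above background, so that LOC1 was at least 1.76-fold and LOC3 at least 1.30-fold below LPS.

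**Figure D3:**
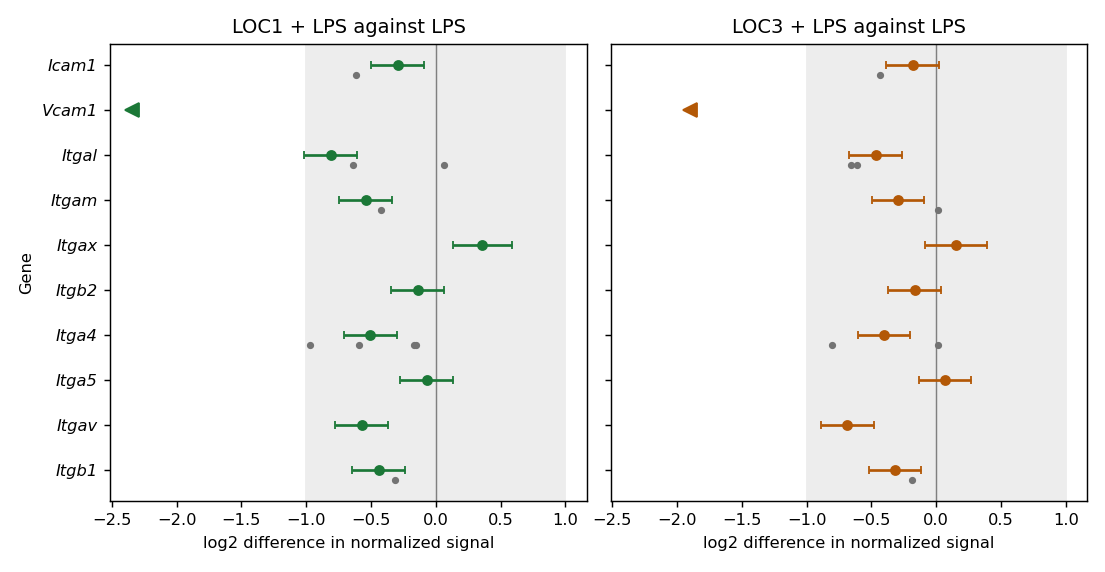
Log2 difference in normalized signal from the LPS array (horizontal axis) for each gene with LOC1 + LPS (left) and LOC3 + LPS (right). Large points are the brightest probes with bars of 1 scanner standard error, grey points are other probes with measured differences, triangles are bounds and the shaded band is the range under 2-fold. All points but the Vcam1 triangles (-2.34 and -1.90) lie in the band, and most lie left of 0.

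Across the 9 genes whose brightest probe was well above background on all arrays, the order from high to low was LPS, LOC3 + LPS, LOC1 + LPS for 5 genes (Icam1, Itgal, Itgam, Itga4 and Itgb1) and LPS, LOC1 + LPS, LOC3 + LPS for Itgb2 and Itgav. For Itga5 it was LOC3 + LPS, LPS, LOC1 + LPS, and for Itgax LOC1 + LPS, LOC3 + LPS, LPS. With Vcam1 included, a difference from LPS of more than 2 scanner standard errors was found for 5 of the 10 genes with LOC1 (Itgal, Itgam, Itga4, Itgav and Itgb1). With LOC3 it was found for 2 of them (Itgal and Itgav). The shares of all genes compared were 24.8% and 23.2%. Under median scaling the count was 2 with LOC1 (Itgal and Itgax, the latter higher) and 1 with LOC3 (Itgav), beside 33.2% and 32.7% of all genes. Of the 16 probes well above background on every array, 11 were highest with LPS, beside 40.9% of the 26193 such probes of all genes, and 8 under median scaling, beside 22.1%.

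Set directly against each other, the strains were close when read from the brightest probes. Of the 9 genes compared by these probes, 6 were lower and 3 higher with LOC1 + LPS than with LOC3 + LPS. None was past 2-fold or beyond 2 scanner standard errors, beside 1.88% of 18861 genes at least 2-fold lower, 0.822% at least 2-fold higher and 4.11% beyond that error. Among dimmer probes measured on all arrays, one of Itgal was at 0.72 and one of Itgam at -0.44, each beyond 2 scanner standard errors. With the measured probes of a gene averaged, Itgax was at -1.47, through the probe seen with LOC3 + LPS alone. The median difference was -0.11, beside -0.01 over all genes. The differences ran from -0.34 for Itgal, with 1970 and 2516, to 0.21 for Itgax, with 75.5 and 65.7. None of the 9 reached 0.50 in either direction by its brightest probe, beside 7.42% of all genes, and 9 genes are too few to read against that share.

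The other genes of the adhesion system were read in 6 lists. Of 18 other integrin subunits, 10 were measured on at least 1 array, and their median differences were 0.07 with both strains. None fell past 2-fold with either strain and 1 rose past it with LOC1, Itgb8, named after its values were seen, with 35.8 on that array and no signal well above background on the others. The brightest of these probes, that of Itgb7, the partner of Itga4 in gut homing, had 31020 with LPS, 43270 with LOC1 + LPS and 42470 with LOC3 + LPS, or 0.59 and 0.56. Its dimmer probe had 307, 681 and 618, or 1.26 and 1.11, past 2-fold. Itga4 itself was at -0.50 and -0.40. Itga6, the laminin receptor subunit, had 11480, 12890 and 13000 (0.28 with both), and was listed at 5.52, or 45.9-fold, with LPS against unchallenged cells, with an implied unchallenged intensity of 250.4. In the other direction, Itgb5, which the naming rule did not select, was listed at -1.06. It was also lower with the strains, with 3308, 1684 and 2026, or -0.86 and -0.60.

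Of 22 other adhesion receptors and selectins, 15 were measured, with medians of -0.26 and -0.18 and 11 of the 15 lower with either strain, and none was past 2-fold. Mcam, an adhesion receptor of the immunoglobulin family, had 73400, 92160 and 91130, or 0.44 and 0.42. Ninj1, which breaks the plasma membrane in lytic cell death, had 52240, 40240 and 42670, or -0.26 and -0.19. Among the tetraspanins and other integrin partners, all 12 were measured, none was past 2-fold, and the medians were -0.25 with LOC1 and -0.03 with LOC3. Cd81, a tetraspanin that associates with beta-1 integrins, had 33820, 20940 and 22060, or -0.58 and -0.51, while Slc3a2, which associates with Itgb1, had 40090, 50350 and 49700, or 0.44 and 0.41.

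**Figure D4:**
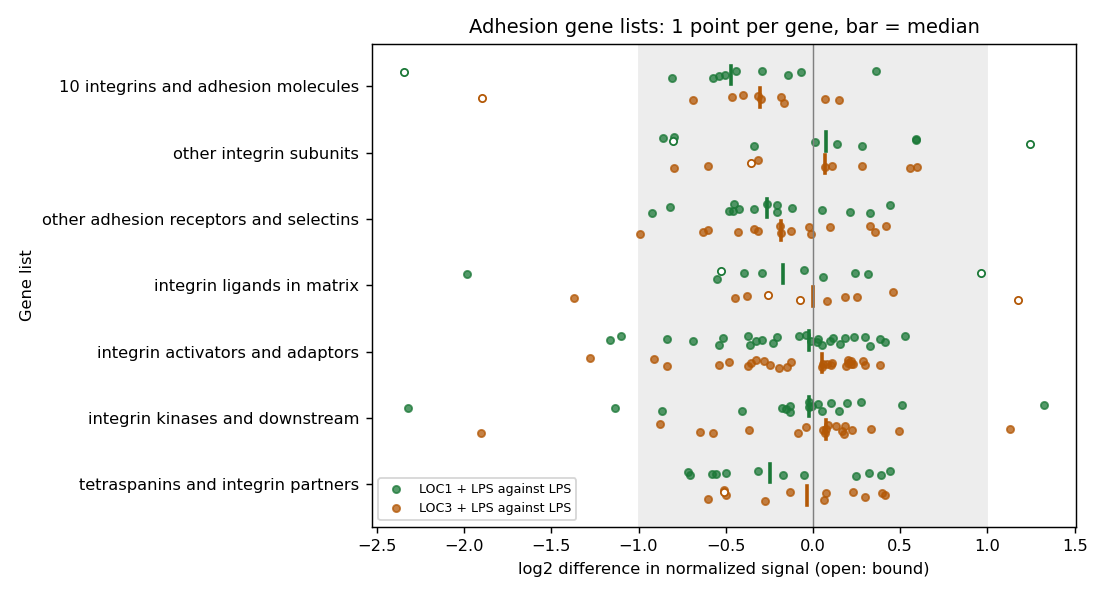
Log2 difference in normalized signal from the LPS array (horizontal axis) for the genes of each list (vertical axis), 1 point per gene, with LOC1 + LPS in green and LOC3 + LPS in brown. Vertical bars are medians, open points are bounds and the shaded band is the range under 2-fold. The 10 integrins and adhesion molecules have the lowest medians of the 7 lists drawn (-0.47 and -0.31), and the points farthest out are those of Vcam1, Fgr, Tgfbi and Syk.

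Among 18 matrix ligands of integrins, 10 were measured, the medians were -0.17 with LOC1 and 0.00 with LOC3, and 1 gene was past 2-fold lower with each strain and 1 higher with LOC3. Tgfbi, a matrix protein bound by several integrins, had 5601 with LPS, 1310 with LOC1 + LPS and 2014 with LOC3 + LPS, a log2 difference of -1.98 and -1.37, and was listed at -1.62 with LPS against unchallenged cells. Thbs1, a ligand of Itgav and Cd47, was not well above background with LPS, with 4.53, and had 29.4 and 34.3 with the strains. That gives a log2 bound of 0.96 with LOC1, short of 2-fold, and of 1.17 with LOC3. Spp1, the Itgav ligand osteopontin, had the highest signal of the list, with 100500, 96580 and 98940 (0.05 and 0.08). Mfge8, which links dying cells to Itgav, had 14950, 10530 and 10200 (-0.39 and -0.45).

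Of 33 activators and adaptors, 28 were measured with LOC1 and 27 could be compared with LOC3, with medians of -0.02 and 0.05. Cytip, which binds the cytohesins that regulate Itgb2, had 227, 93.7 and 87.2 from its brightest probe, or -1.16 and -1.28, and its listed ratio with LPS was -3.93. Its other probe had 26.6, 18.5 and 74.7, or -0.41 with LOC1 and 1.60 with LOC3, past 2-fold the other way, so the probes do not give Cytip 1 direction with LOC3. Tns1, a tensin that links integrin tails to actin, had 969, 418 and 505, which is -1.10 with LOC1 and -0.84 with LOC3. By their brightest probes, these were the genes of the list past 2-fold, both with LOC1 and Cytip alone with LOC3. Flna, which binds integrin tails, had 86160, 62070 and 65980 (-0.36 and -0.28), and Rap1b, the small GTPase that drives integrin activation, 56150, 65070 and 64250 (0.33 and 0.30).

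The kinases and other signalling genes held the largest difference of the 6 lists, that of Fgr. Of the 19 measured of 20, 2 were past 2-fold lower and 1 higher with LOC1, 1 lower and 1 higher with LOC3, and the medians were -0.02 and 0.07. Fgr, a Src family kinase that acts behind Itgb2 in myeloid cells, had 212, 39.3 and 52.8 and fell by 2.32 and 1.91. Syk, a kinase that acts after the Src family, went the other way, with 3116, 7214 and 6353, from its brightest probe, a rise of 1.32 and 1.13. Of its other probes, one with 182, 401 and 478 gave 1.25 with LOC1 and more with LOC3, and one with 147, 206 and 141 gave 0.60 and 0.05. The last, with 38.3 and 23.8 with the strains, was not well above background with LPS. Rac2, with 48650, 49910 and 51310 (0.15 and 0.18), and Vav1, with 46530, 39320 and 44980 (-0.13 and 0.05), the brightest of the list, had small differences.

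Macrophage genes outside adhesion also differed. Csf1r, the receptor of the growth factor CSF-1, had 77800, 38940 and 44640 (-0.89 and -0.70), and Spi1, which encodes PU.1, had 2641, 1699 and 1786 (-0.52 and -0.46). Mrc1, with 53.3 with LPS, was too dim to be marked with either strain (12.8 and 20.4), a log2 bound of -1.76 and -1.28. Adgre1, with 11370, 15570 and 13800, and Mertk, with 575, 844 and 821, were instead at 0.57 and 0.66 with LOC1 and at 0.38 and 0.62 with LOC3. The summed intensity of the 10 markers was 611400 with LPS, 548500 with LOC1 + LPS and 584200 with LOC3 + LPS. Of the remaining markers, Cd68 was at 0.30 with LOC1 and 0.27 with LOC3, Marco at 0.38 and 0.41, Cd14 at 0.06 and 0.04, Fcgr1 at 0.04 and 0.14, and Lyz2 at -0.29 and -0.11. The part of the macrophage state in the values of the integrin genes was not tested.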

How the data were processed

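RNA of 3 conditions, 200 ng each, was measured on 1-colour Agilent arrays. The authors deposited spot intensities from Feature Extraction (12.0.3.1 in the file headers, 10.7.3.1 in the methods), corrected for background and spatial trend but not scaled between arrays. The deposited log2 ratios were made by the authors in GeneSpring 13.1, and for probes listed in 2 columns they equal the log2 intensity differences plus 1 constant (0.15 for LOC1 against LPS, 0.14 for LOC3 against LPS). The submitters' processing notes also name limma and R 3.2.5.

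Outlier spots were left out (118 to 135 an array), no spot was saturated, spots of a probe were averaged, and log2 values were scaled to each array's 75th percentile. A gene was compared where at least 1 array of the pair measured it well above background. A difference of 2-fold, the size used in the methods, was called. A ratio with 1 array a group has no test, so the t-test of the methods was not run. The lists held other integrin subunits, adhesion receptors, matrix ligands, activators and adaptors, kinases, partners and cell type markers. From each, up to 4 genes past 2-fold and measured on at least 2 arrays were named, and the 2 with the highest signal, apart from an item that is not reported here. Alternatives were other scalings, background corrections, filters, thresholds and probe rules. The genes and the lists were chosen with earlier results of these data known. Of the 27 probes, 16 matched a RefSeq gene by accession, 0 of them under another symbol, and the exons that probes cover are not given here. Python 3.11.15, numpy 2.4.6, pandas 2.3.3, matplotlib 3.10.9, R 4.3.3 and limma 3.58.1 (normexp, offset 50) were used. The comparison was tested on simulated arrays with changes past 2-fold in probes of middle signal and no variation between cultures. That test does not cover smaller differences or bounds. The number of arrays limits the precision.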

Additional observations from a re-analysis of the deposited data

Results flagged for a closer look

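The second Itgax probe stood out because its signal appeared on 1 array and in no other probe of the gene, outside the values that represent Itgax. Its intensity was 129.42 with LOC3 + LPS against 7.69 with LPS and 3.48 with LOC1 + LPS, both too dim to be marked as well above background. With 1 spot on each array, this value has no replicate.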

How the results depend on the processing

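No paired analysis was possible because the labels carry no replicate numbers and each group is 1 array, and for the same reason no array could be left out. Of 266 recomputed differences of the genes, 15 moved by more than the scanner's error, 8 of them under median scaling, and 7 changed sign, none of them past 2-fold before the change and 1 of them (Itgax, LOC1 against LOC3) past it after. Under median scaling the median difference of the 10 genes was -0.25 with LOC1 and -0.11 with LOC3, and under quantile normalization -0.53 and -0.42. The count of genes at least 2-fold lower was 0 with each strain, in place of 1, under normexp background correction and also when a probe had to be well above background on both arrays, since Vcam1 was then not past 2-fold or not compared. The count at least 2-fold higher with LOC3 was 1, in place of 0, when the measured probes of a gene were averaged, through Itgax (1.62). Averaging also turned the sign of Itgal (0.12), Itgax (-1.47) and Itga4 (0.01) between LOC1 and LOC3. The sign changes under median scaling were those of Itgb2 (0.08) and Itga5 (0.15) with LOC1 and of Icam1 (0.02) and Itgb2 (0.03) with LOC3. With normexp, 213 genes were at least 2-fold higher and 207 lower with LOC1, and 249 and 157 with LOC3. With no filter and no floor, Vcam1 was at -4.50 and -3.66, from strain signals that were not well above background. The 75th percentile over probes in place of spots was chosen after seeing the data and changed no count of the 10 genes. Differences of the deposited columns could be taken for few of these genes, since both columns must be listed. Signal over background limits Vcam1, Itgax and the dim probes of Itga4 and Itgb1.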
